A study of Mus musculus with 6 samples.

Results

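Genes of cholesterol synthesis, uptake and export were followed in the livers of 3 TLR3-/- mice and 3 TLR3wt mice. The genes came from a list of 32 that covers the enzymes from acetoacetyl-CoA to cholesterol, the proteins that sense sterols, and carriers that take up, move, esterify or export cholesterol. A gene was measured where a probe set of the array carried that gene's symbol and no other, and where several did, the brightest one on average over all 6 arrays stood for it. This gave 30 genes, and 0 of them stood at the lowest value of the table, 5, on all arrays, so 0 were left out for that reason. Acat2 and Soat2 were matched to no such probe set and are not analysed here. The table held 10347 genes above that value on at least 1 array and named in the same way.

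All 6 mice were untreated, 3 months old and bred in house under specific-pathogen-free conditions, and the series describes both genotypes as C57Bl/6. TLR3 senses double-stranded RNA in endosomes, and the comparison asks what its absence does to the untreated liver. The sources used here give neither the kind of TLR3-/- allele nor whether the groups were littermates. Total RNA of whole liver was labelled with biotin and measured on 1 array per mouse, and values are log2 signals after RMA, a method that removes background, gives the arrays 1 distribution and combines probes into probe sets. A difference of 1 on this scale is a doubling or a halving of signal.

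The liver makes cholesterol from acetyl-CoA through mevalonate, squalene and lanosterol. When sterols in the endoplasmic reticulum run low, SCAP escorts the transcription factor SREBP2 (Srebf2) to the Golgi, where it is cut and released to induce nearly every enzyme of the route. When sterols are plentiful, INSIG proteins hold SCAP back, and the nuclear receptor LXR raises genes that export cholesterol, such as the transporters ABCA1, ABCG5 and ABCG8.

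The cholesterol-making enzymes had lower group means in TLR3-/- livers, while sterol sensors, carriers and exporters divided between higher and lower. All 17 measured synthesis enzymes had a lower mean in the TLR3-/- group, with a median log2 difference (TLR3-/- minus TLR3wt) of -0.29 and a range from -0.70 (Pmvk) to -0.02 (Tm7sf2). Over the 16639 probe sets tested, 41.2% had a lower mean and the median was 0.03. Of the 13 other measured genes, 7 had a lower and 6 a higher mean (median -0.05). Leaving out TLR3-/- replicate 3 gave a median of -0.14 for the 17 enzymes, and leaving out TLR3wt replicate 3 gave -0.19.

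None of the 30 genes passed the test on its own. With limma and Benjamini-Hochberg adjustment over all tested probe sets at a threshold of 0.05, 0 of 30 were called, where 0.186% of all tested probe sets were. The smallest limma adjusted p among them was 0.163 (Sqle), and it lay between 0.127 and 0.481 in the alternative settings. At an unadjusted p under 0.05, 8 of 30 genes (26.7%) were lower, against a background of 5.25%, and 2 of 30 (6.67%) were higher, against 9.21%. All 8 lower ones were synthesis enzymes. That count of 8 fell to 1 when TLR3wt replicate 1 was left out and to 5 when TLR3wt replicate 3 was. It was 3 without TLR3-/- replicate 2, 4 without TLR3-/- replicate 3, and 2 when probe sets at 5 on all arrays also entered the fit.

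In 6 of 30 genes (20.0%) every TLR3-/- liver lay below every TLR3wt liver, against 7.04% of tested probe sets, and these were Pmvk, Fdps, Sqle, Cyp51, Nsdhl and Dhcr7. In 2 of 30 (6.67%), Insig2 and Npc1, every TLR3-/- liver lay above, against 13.0%. The share of separated genes was thus above the background on the lower side and below it on the higher side. The lower count of 6 became 13 when TLR3wt replicate 2 was left out, and also 13 when TLR3-/- replicate 1 was.

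**Figure D1:**
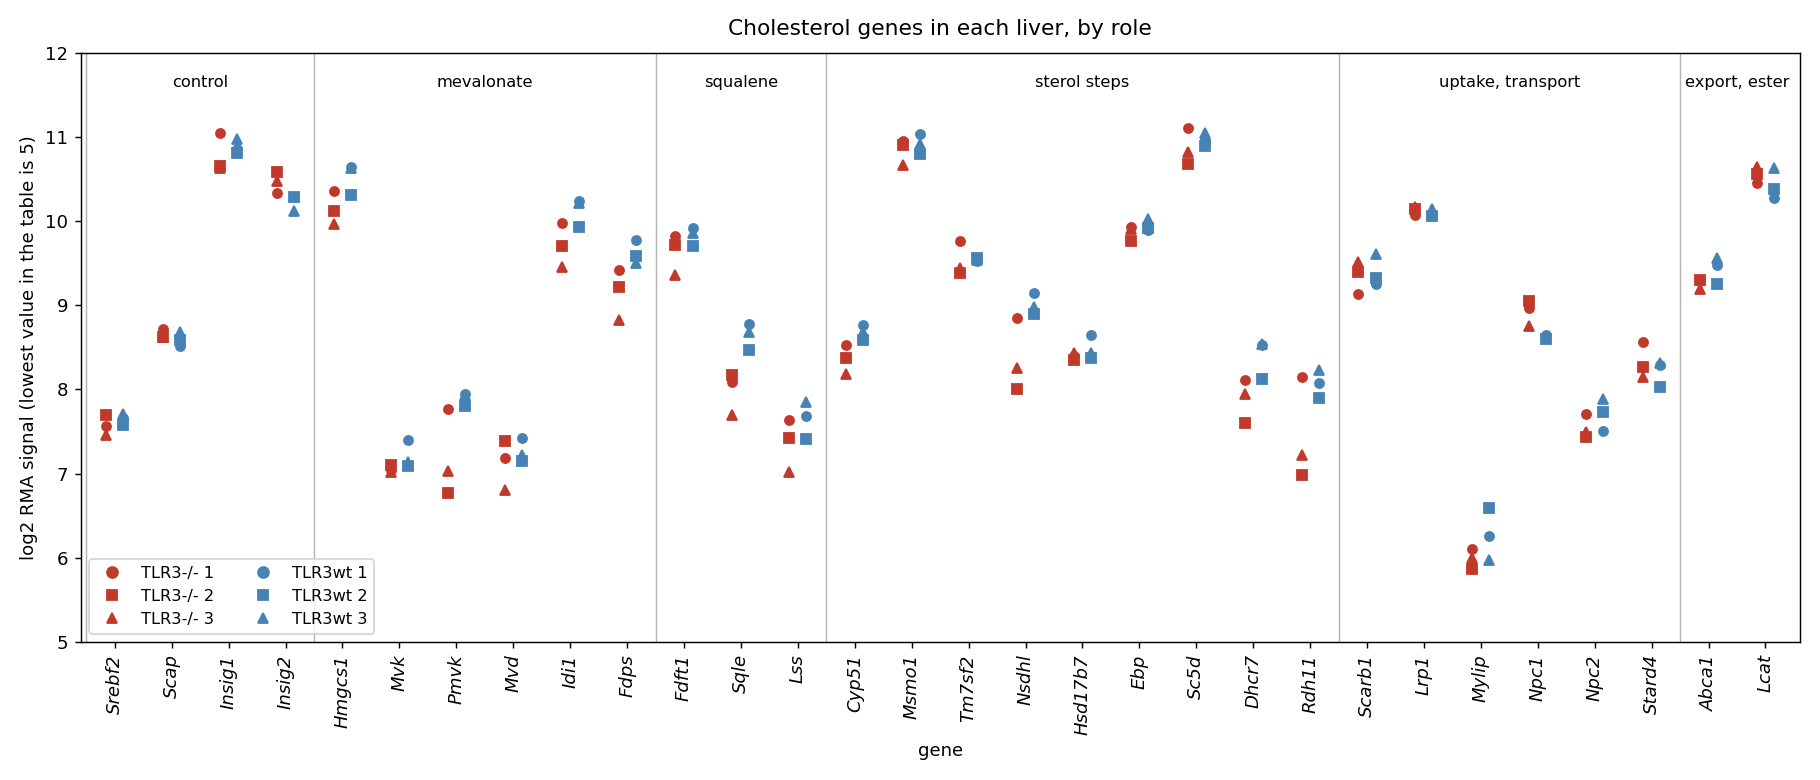
Each point is the log2 RMA signal of 1 gene in 1 liver (TLR3-/- red, TLR3wt blue, the symbol shape gives the replicate number), with the 30 genes ordered by role. In Sqle the TLR3-/- livers lie between 7.70 and 8.17 and the TLR3wt livers between 8.47 and 8.78, while in Srebf2 the groups overlap.

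The mevalonate steps build the isoprenoid units from which sterols are assembled. Their 6 measured genes all had lower means (median -0.40). Of them 2 (33.3%), Pmvk and Fdps, separated the groups, against 7.04% of tested probe sets on the lower side. Hmgcs1 (probe set 10412466), which makes HMG-CoA, was 10.36, 10.12 and 9.96 in TLR3-/- replicates 1 to 3 and 10.65, 10.32 and 10.63 in TLR3wt replicates 1 to 3. TLR3wt replicate 2 was the low one of its group and overlapped TLR3-/- replicate 1. The difference was -0.38 with a standard error of 0.14 (limma adjusted p = 0.284).

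Pmvk (10493548), the phosphomevalonate kinase, was 7.77, 6.77 and 7.04 in TLR3-/- livers and 7.95, 7.80 and 7.93 in TLR3wt livers. TLR3-/- replicate 1 lay just under the TLR3wt livers and the other TLR3-/- livers far below them. The group means were 7.19 ± 0.51 and 7.89 ± 0.08 (SD, n = 3 each), a 1.63-fold lower signal with limma adjusted p = 0.284 and a 95% interval of the log2 difference from -1.30 to -0.10.

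Fdps (10499483), farnesyl diphosphate synthase, was 9.42, 9.22 and 8.82 in TLR3-/- livers and 9.78, 9.58 and 9.50 in TLR3wt livers. The groups did not overlap, with TLR3-/- replicate 3 the lowest of all, and the difference was -0.47 (SE 0.16, limma adjusted p = 0.283), or -0.30 with that liver left out. Idi1 (10482762), the isomerase before it, was 9.99, 9.71 and 9.45 against 10.24, 9.93 and 10.22, a difference of -0.41. Its second probe set (10403413) gave -0.40, with the same liver lowest. The mevalonate kinase Mvk and the decarboxylase Mvd had differences of -0.15 and -0.14, with overlapping groups.

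The squalene steps commit the pathway to sterols. Sqle (10424349), the squalene epoxidase, was 8.09, 8.17 and 7.70 in TLR3-/- livers and 8.78, 8.47 and 8.69 in TLR3wt livers. The gap between the groups was clear of overlap, and the means of 7.99 ± 0.25 and 8.64 ± 0.16 (SD, n = 3 each) stood 1.57-fold apart (limma adjusted p = 0.163, 95% interval -1.01 to -0.30 on the log2 scale). Without any 1 mouse in turn, this difference stayed between -0.75 and -0.51.

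The other squalene enzymes differed less. Lss (10364194), lanosterol synthase, was 7.64, 7.42 and 7.02 in TLR3-/- livers and 7.68, 7.41 and 7.85 in TLR3wt livers. Fdft1 (10420730), squalene synthase, was 9.83, 9.71 and 9.36 against 9.92, 9.71 and 9.86. In both genes TLR3-/- replicate 3 was low and the other livers of the groups overlapped (differences -0.29 and -0.20, limma adjusted p = 0.531 and 0.555). With that liver left out the differences were -0.12 and -0.06. The other Fdft1 probe set (10412909) gave -0.24. The median of these 3 genes, -0.29, became -0.12 when TLR3-/- replicate 3 was left out and -0.19 when TLR3wt replicate 3 was.

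The sterol steps turn lanosterol into cholesterol, and their differences were uneven. Of 9 genes listed here 9 had lower means, with a median of -0.10 (-0.22 with TLR3-/- replicate 1 left out, -0.15 with TLR3wt replicate 2 left out). Cyp51 (10527920), the lanosterol demethylase, was 8.53, 8.38 and 8.18 in TLR3-/- livers and 8.77, 8.59 and 8.68 in TLR3wt livers. Nsdhl (10600082), a sterol dehydrogenase, was 8.85, 8.01 and 8.25 against 9.15, 8.89 and 8.98. Dhcr7 (10559312), which catalyses the closing reduction of 7-dehydrocholesterol, was 8.12, 7.60 and 7.94 against 8.52, 8.13 and 8.54. All 3 separated the groups (3 of 9 genes, 33.3%, against 7.04% of tested probe sets), Dhcr7 by the narrow gap between 8.12 and 8.13.

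The differences were -0.32 (SE 0.10) for Cyp51, -0.64 (SE 0.21) for Nsdhl and -0.51 (SE 0.17) for Dhcr7, with limma adjusted p = 0.254, 0.267 and 0.265. The remaining enzymes between lanosterol and cholesterol lay close to no difference. They were the methylsterol oxidase Msmo1 (-0.08), the reductase Tm7sf2 (-0.02), the ketosteroid reductase Hsd17b7 (-0.09), the isomerase Ebp (-0.08) and the desaturase Sc5d (-0.10). Their 95% intervals all included 0 and reached at lowest -0.38 (Sc5d). Rdh11, a retinol dehydrogenase that is counted with these genes as an SREBP target and not as a step of synthesis, was 8.15, 6.99 and 7.22 in TLR3-/- livers and 8.07, 7.89 and 8.23 in TLR3wt livers. TLR3-/- replicate 1 lay within the TLR3wt range, and the other TLR3-/- livers lay well under it.

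**Figure D2:**
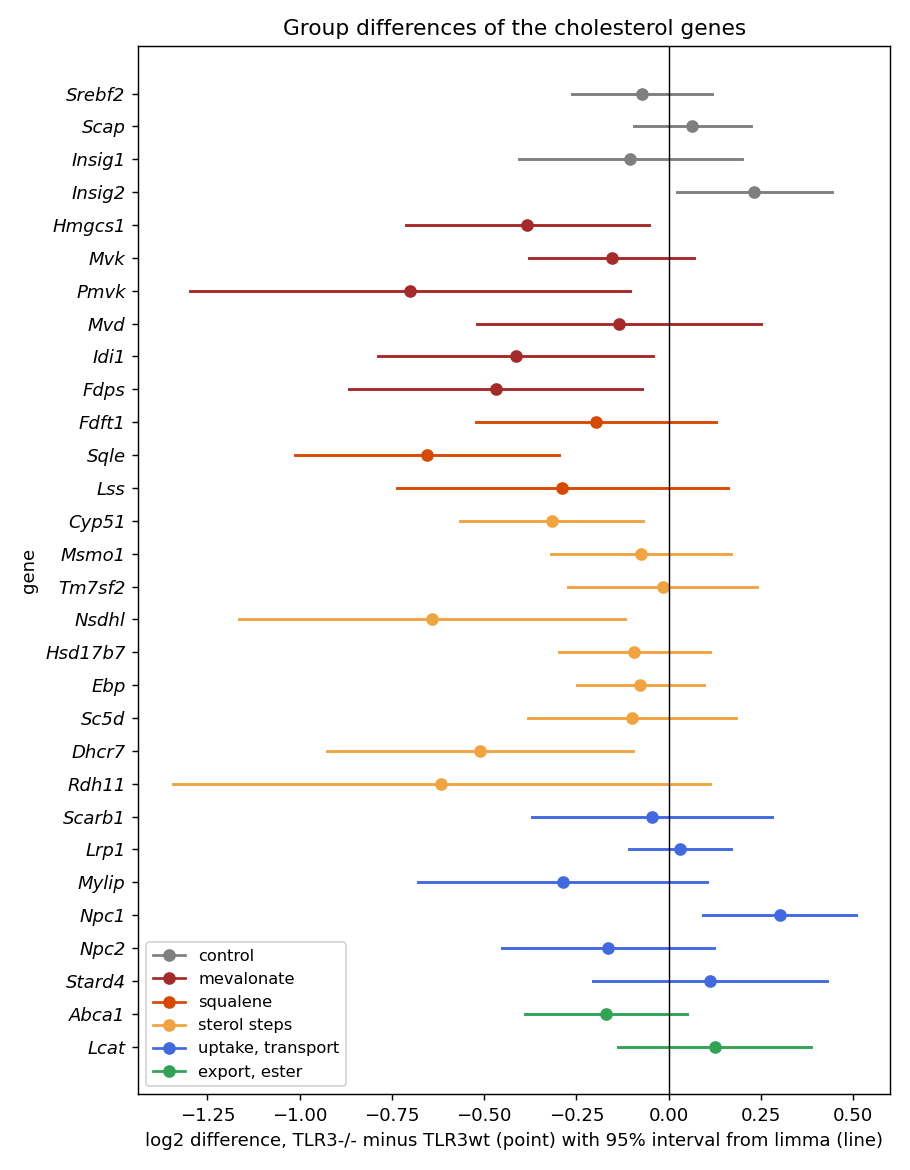
Points are log2 differences (TLR3-/- minus TLR3wt) of the 30 genes in order of role, with colour for the role and lines for the 95% interval of the limma fit. All synthesis enzymes lie left of 0, from -0.70 (Pmvk) to -0.02 (Tm7sf2), and the intervals of Insig2 and Npc1 lie right of it.

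The promoters of the listed genes were read for the motif that SREBP2 binds and for that of a factor that acts with it. The windows are the 250 bases before the gene start in RefSeq, build GRCm38.p6, and 25 of the 32 genes had an entry. They were searched on both strands for the sterol regulatory element TCACNCCAC and for the CCAAT box, CCAAT, which the factor NF-Y binds and which shares no position with the other motif. The windows of 4 enzymes are shown, chosen after their values were seen as those with 1 start in the table and an unadjusted p under 0.05. They are Hmgcs1 at chr13:119690101-119690350 (plus strand), Idi1 at chr13:8885356-8885605 (plus strand), Cyp51 at chr5:4104698-4104947 (minus strand) and Nsdhl at chrX:72918271-72918520 (plus strand). Capitals mark the motifs, and ATTGG is the CCAAT box on the opposite strand.
Hmgcs1: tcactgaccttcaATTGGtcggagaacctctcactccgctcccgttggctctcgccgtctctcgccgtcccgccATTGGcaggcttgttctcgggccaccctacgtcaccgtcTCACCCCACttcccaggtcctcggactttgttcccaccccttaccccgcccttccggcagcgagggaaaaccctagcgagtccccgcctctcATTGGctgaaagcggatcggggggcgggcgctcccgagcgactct
Idi1: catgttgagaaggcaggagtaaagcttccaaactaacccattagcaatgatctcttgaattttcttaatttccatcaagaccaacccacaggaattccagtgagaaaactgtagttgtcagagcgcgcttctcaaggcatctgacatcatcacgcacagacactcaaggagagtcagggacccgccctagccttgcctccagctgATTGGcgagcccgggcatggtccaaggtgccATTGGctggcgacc
Cyp51: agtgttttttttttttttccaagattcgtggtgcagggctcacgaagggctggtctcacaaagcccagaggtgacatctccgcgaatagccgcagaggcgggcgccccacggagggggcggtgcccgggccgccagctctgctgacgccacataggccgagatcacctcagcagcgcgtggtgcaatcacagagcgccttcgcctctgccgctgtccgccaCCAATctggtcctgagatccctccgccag
Nsdhl: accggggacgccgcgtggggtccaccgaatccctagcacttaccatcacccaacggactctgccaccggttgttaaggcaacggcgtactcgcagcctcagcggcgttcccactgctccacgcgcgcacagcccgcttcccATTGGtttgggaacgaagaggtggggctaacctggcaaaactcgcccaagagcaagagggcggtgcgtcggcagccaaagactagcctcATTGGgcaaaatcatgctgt

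Hmgcs1 was the 1 gene of these 25 whose window held the sterol regulatory element in these letters, 137 to 129 bases before the start, and 1.22% of the 27025 genes in the table and 1.36% of the tested genes of the array held it. A CCAAT box stood in the windows of 21 of the 25 genes (84.0%) and of 14 of the 15 listed synthesis enzymes with an entry (93.3%, Acat2 included), against 37.5% of all genes in the table and 39.9% of 8330 tested ones. Among measured genes with an entry, it stood in 19 of the 20 with a lower mean in TLR3-/- livers (not in Abca1). Of the 4 with a higher mean it stood in 2 (Insig2 and Lcat, not Scap and Lrp1). Most of the 20 genes are synthesis enzymes, and whether the box goes with the direction was not tested. A gene with several starts was counted if the window of any of them held the motif. These motif hits are matches of letters and not measured binding.

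Of the 4 measured genes of sterol sensing, 2 had a lower and 2 a higher mean. Whether they differ from the enzymes was not tested. Srebf2 (10425695), the SREBP2 gene, was 7.56, 7.70 and 7.46 in TLR3-/- livers and 7.66, 7.57 and 7.70 in TLR3wt livers. The groups overlapped (difference -0.07, 95% interval -0.26 to 0.12, limma adjusted p = 0.727). The array measures its transcript and not the cut, active protein. Scap (10589511), its escort, was 8.72, 8.63 and 8.63 against 8.52, 8.58 and 8.68 (difference 0.06, limma adjusted p = 0.705). Leaving out 1 mouse moved these small differences to between -0.13 and -0.02 for Srebf2 and to between 0.03 and 0.11 for Scap.

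INSIG1 and INSIG2 both retain SCAP. Insig1 (10520362), itself an SREBP target, was 11.05, 10.66 and 10.64 in TLR3-/- livers and 10.86, 10.82 and 10.98 in TLR3wt livers. TLR3-/- replicate 1 was the highest of all 6 livers and the other TLR3-/- livers the lowest (difference -0.10, limma adjusted p = 0.751). The difference was -0.24 with TLR3-/- replicate 1 left out and -0.03 with TLR3-/- replicate 3 left out. It was -0.04 and -0.06 with TLR3-/- replicate 2 or TLR3wt replicate 3 left out. Insig2 (10357280), the liver's other retention protein, was 10.34, 10.58 and 10.48 against 10.29, 10.29 and 10.12. Every TLR3-/- liver was above every TLR3wt liver, by a mean of 0.23 (SE 0.09, limma adjusted p = 0.304).

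Of 6 genes of uptake and intracellular transport, 3 had a higher and 3 a lower mean. The groups did not overlap in Npc1 alone. That is 1 of 6 (16.7%), near the 13.0% of tested probe sets on the higher side. Npc1 (10457508), which moves cholesterol out of lysosomes, was 8.97, 9.05 and 8.76 in TLR3-/- livers and 8.65, 8.59 and 8.63 in TLR3wt livers. The TLR3wt livers lay close together and all TLR3-/- livers above them, with a difference of 0.30 (SE 0.09, limma adjusted p = 0.212). Its lysosomal partner Npc2 (10401519) was 7.71, 7.44 and 7.49 against 7.51, 7.73 and 7.89, with overlap and a difference of -0.16 (-0.26 with TLR3wt replicate 1 left out, -0.08 with TLR3wt replicate 3 left out).

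Mylip (10404874), a ubiquitin ligase that degrades lipoprotein receptors and is an LXR target, was 6.10, 5.86 and 5.99 in TLR3-/- livers and 6.26, 6.59 and 5.97 in TLR3wt livers (difference -0.29, limma adjusted p = 0.471). With TLR3wt replicate 2 left out the difference was -0.13, and with TLR3wt replicate 3 left out it was -0.44. Scarb1, the receptor for high-density lipoprotein, Lrp1, an endocytic receptor for remnant particles, and Stard4, a cytosolic sterol carrier, had differences of -0.05, 0.03 and 0.11. The median of these 6 genes was -0.01, and it moved to 0.06 with TLR3wt replicate 3 left out and to -0.06 with TLR3-/- replicate 3 left out. For Lrp1 the 95% interval ran from -0.11 to 0.17, the narrowest of the 30 genes.

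Export and esterification were represented by a pair of genes. Abca1 (10512949), which loads cholesterol onto nascent high-density lipoprotein, was 9.29, 9.30 and 9.20 in TLR3-/- livers and 9.48, 9.26 and 9.56 in TLR3wt livers. Lcat (10581388), the plasma enzyme that esterifies cholesterol on that lipoprotein, was 10.45, 10.57 and 10.65 against 10.28, 10.38 and 10.63. Both overlapped between the groups, with differences of -0.17 and 0.12 (limma adjusted p = 0.446 and 0.655). Leaving out 1 mouse gave -0.26 (TLR3wt replicate 2) to -0.11 (TLR3wt replicate 3) for Abca1. For Lcat it gave 0.05 (TLR3wt replicate 1) to 0.23 (TLR3wt replicate 3).

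The TLR3-/- livers differed among themselves as well. Averaged over the 17 synthesis enzymes, the difference from the TLR3wt mean was -0.10, -0.36 and -0.46 in TLR3-/- replicates 1 to 3 and 0.10, -0.12 and 0.03 in TLR3wt replicates 1 to 3. TLR3-/- replicate 1 thus lay inside the TLR3wt range and the groups overlapped in this average. TLR3-/- replicate 3 was below the whole TLR3wt range in 15 of the 17 enzymes, TLR3-/- replicate 2 in 12 and TLR3-/- replicate 1 in 7.

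Which liver was lowest varied with the step. TLR3-/- replicate 3 was the lowest of all livers in 5 of 6 mevalonate and 3 of 3 squalene genes. TLR3-/- replicate 2 was the lowest in 7 of 9 sterol-step genes, Rdh11 included. Replicate 1 stood above the mean of the other TLR3-/- livers by 1.05 in Rdh11, 0.86 in Pmvk and 0.72 in Nsdhl, and by 0.16 in Sqle. Among TLR3wt livers, replicate 1 was the highest of all livers in 12 of the 17 enzymes.

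**Figure D3:**
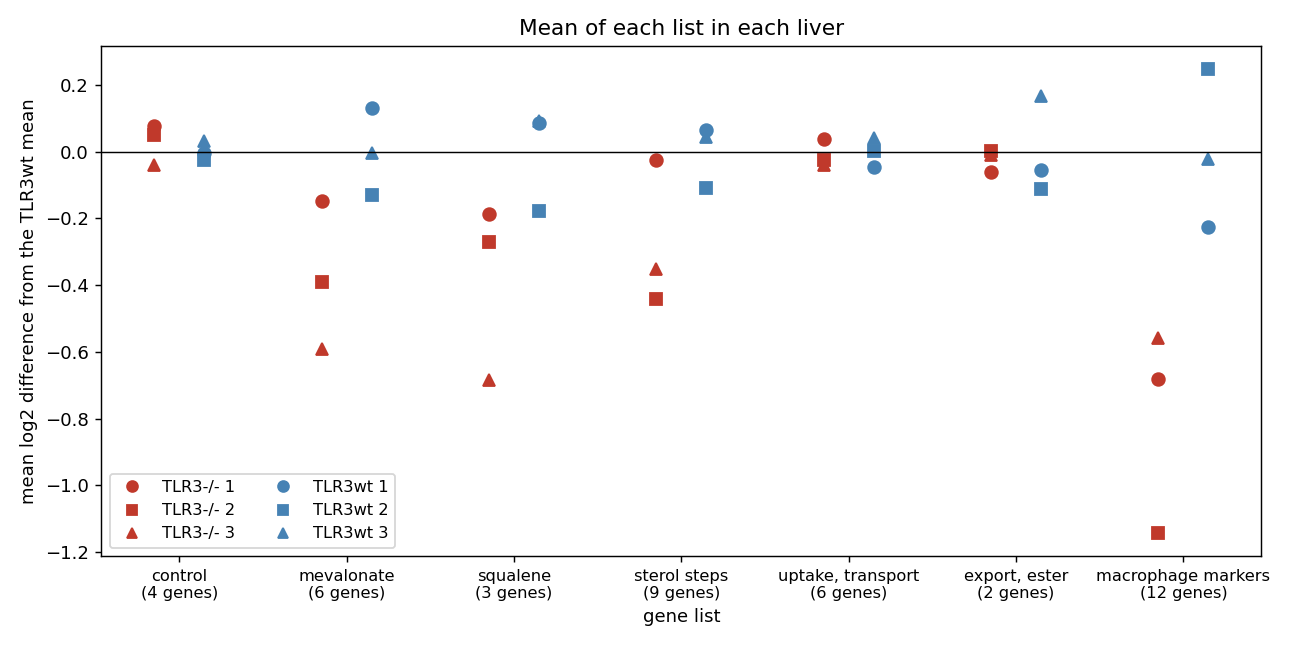
Each point is the mean, over the genes of a list, of the log2 difference from the TLR3wt mean in 1 liver (TLR3-/- red, TLR3wt blue, shapes for replicate numbers), for the 6 roles and for macrophage markers. TLR3-/- replicates 2 and 3 lie low in the mevalonate, squalene and sterol lists, and in the control, uptake and export lists the groups overlap.

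Cell composition was read from marker lists. Hepatocyte markers were near the top of the scale in both groups (mean of 7 genes 12.13 to 12.20 in TLR3-/- and 12.03 to 12.17 in TLR3wt livers). In 2 of the 7 (28.6%), every TLR3-/- liver lay above every TLR3wt liver, against 13.0% of tested probe sets. These were Cyp2e1 (0.25) and Hpd (0.13), neither called by limma. Of 12 Kupffer cell and macrophage markers, 11 were lower in every TLR3-/- liver than in every TLR3wt liver (none called by limma), against 7.04% of tested probe sets. Their mean level was 6.33 to 6.91 in TLR3-/- and 7.24 to 7.72 in TLR3wt livers. Whole liver was measured, so fewer macrophages and less RNA per macrophage cannot be told apart. TLR3-/- replicate 2 was lowest for 11 of these markers. Of the 17 synthesis enzymes, TLR3-/- replicate 3 was lowest for 10 and TLR3-/- replicate 2 for 7. The part of these marker differences in the values of the cholesterol genes was not tested. The ranges of the mean overlapped for endothelial markers (7.09 to 7.35 in TLR3-/- and 7.24 to 7.50 in TLR3wt livers) and for stellate cell markers (6.94 to 7.12 and 7.05 to 7.28). In each of these lists 2 of 6 genes (33.3%) had every TLR3-/- liver below every TLR3wt liver. They were Lyve1 (-0.56) and Pecam1 (-0.24) among endothelial and Col1a1 (-0.49) and Col3a1 (-0.55) among stellate cell markers. Other members went the other way, with overlapping groups. Higher means were held by 2 of 6 endothelial markers (Kdr 0.01, Clec4g 0.06) and 3 of 6 stellate cell markers (Lrat 0.21, Dcn 0.17, Reln 0.17). Adipocyte markers were at 5 on all arrays for 4 of 4 genes, and so were lymphocyte markers for 4 of 5. Of 3 acinar pancreas markers, 2 were at 5 on all arrays, and Cela1 was 0.39 higher in TLR3-/- livers with no overlap (not called by limma).

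Other genes of sterol handling came from 5 further lists, and 0 of their 46 tested genes passed. In the list of LXR and sterol disposal genes, 8 of 10 had a higher mean (median 0.11). Among the 8 is Cyp46a1, which stood at 5 in all livers except TLR3-/- replicate 2 (5.13). It entered the test only through that liver, so its direction was fixed by the filter and says nothing about the list. A lower mean was held by 2 of 10 (20%), against 41.2% of tested probe sets. Every TLR3-/- liver lay above every TLR3wt liver in 4 of the 10 (40%, against 13.0% of tested probe sets). All lay below in 2 of the 10 (20%, against 7.04%). Cyp7a1 (10511375), which starts the classic route from cholesterol to bile acids, was 8.07, 7.54 and 8.17 in TLR3-/- livers and 9.41, 9.47 and 8.65 in TLR3wt livers. Every TLR3-/- liver lay below every TLR3wt liver, with a difference of -1.25 (limma adjusted p = 0.156). Cyp39a1, an oxysterol hydroxylase, also separated the groups on the lower side, at 7.32, 7.65 and 7.33 against 7.77, 8.13 and 8.33 (limma adjusted p = 0.186).

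The canalicular exporters lay on the other side. Abcg8 (10447239), which pairs with ABCG5 to secrete cholesterol into bile, was 8.90, 8.57 and 8.61 in TLR3-/- livers and 8.27, 8.28 and 8.43 in TLR3wt livers. Its partner Abcg5 (10453318), added after its values were seen, was 8.76, 8.49 and 8.54 against 8.28, 8.30 and 8.45. In both genes the groups did not overlap and TLR3-/- replicate 1 was the highest (differences 0.37 and 0.25, limma adjusted p = 0.212 and 0.295). The LXRalpha gene Nr1h3 and the LXR target Abcg1, also added after their values were seen, had differences of 0.11 and 0.01.

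Genes listed for processing SREBP or degrading its partners, with Srebf1 itself among them, split evenly by mean, with 4 of 8 higher. In 3 of the 8 (37.5%), Mbtps1, Rnf139 and Faf2, every TLR3-/- liver lay above every TLR3wt liver, against 13.0% of tested probe sets. In 0 of them all lay below. Mbtps1 (10582094), the site-1 protease that makes the opening cut in SREBP, was 8.05, 8.04 and 8.10 in TLR3-/- livers and 7.87, 7.88 and 7.87 in TLR3wt livers. This was a small but even difference of 0.19 (SE 0.05, limma adjusted p = 0.186). Rnf139 and Faf2, parts of the degradation machinery of the endoplasmic reticulum, had differences of 0.16 and 0.12.

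Enzymes that branch off after farnesyl diphosphate mostly had higher means, and whether they differ from the sterol enzymes was not tested. Of 9 isoprenoid genes 8 had a higher mean (median 0.12). A lower mean was held by 1 of 9 (11.1%), against 41.2% of tested probe sets. The smallest p-values were those of the geranylgeranyl transferase subunits Pggt1b (0.22 on the log2 scale) and Rabggta (0.12) and of the synthase Ggps1 (0.17), and Rabggtb, the partner of Rabggta added after its values were seen, differed by 0.13. In 4 of the 9, these 3 and Rabggtb, every TLR3-/- liver lay above every TLR3wt liver, against 13.0% of tested probe sets, and the smallest limma adjusted p was 0.227. Genes listed for the supply of acetyl-CoA and NADPH had lower means in 6 of 8 (median -0.39). The 2 higher ones were the cytochrome b5 genes Cyb5b and Cyb5r3 (0.02 and 0.07), which supply neither. Acly (10391146), which makes cytosolic acetyl-CoA from citrate, was 9.53, 8.59 and 8.82 in TLR3-/- livers and 9.64, 9.40 and 9.56 in TLR3wt livers, so again TLR3-/- replicate 1 lay within the TLR3wt range. The difference was -0.56, or -0.36 with TLR3-/- replicate 2 left out. Pgd, an NADPH-yielding dehydrogenase, separated the groups (-0.42), and Idh1 did not (-0.15, or -0.09 with TLR3wt replicate 1 left out).

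Further uptake and transport genes showed no common direction, with 4 of 11 lower. The fatty acid and lipoprotein receptor gene Cd36 (10528207) was 7.73, 7.78 and 7.54 in TLR3-/- livers and 7.91, 7.99 and 8.00 in TLR3wt livers (difference -0.28, limma adjusted p = 0.212). The sterol carriers Stard5 and Osbpl2 had differences of 0.13 and 0.12.

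**Figure D4:**
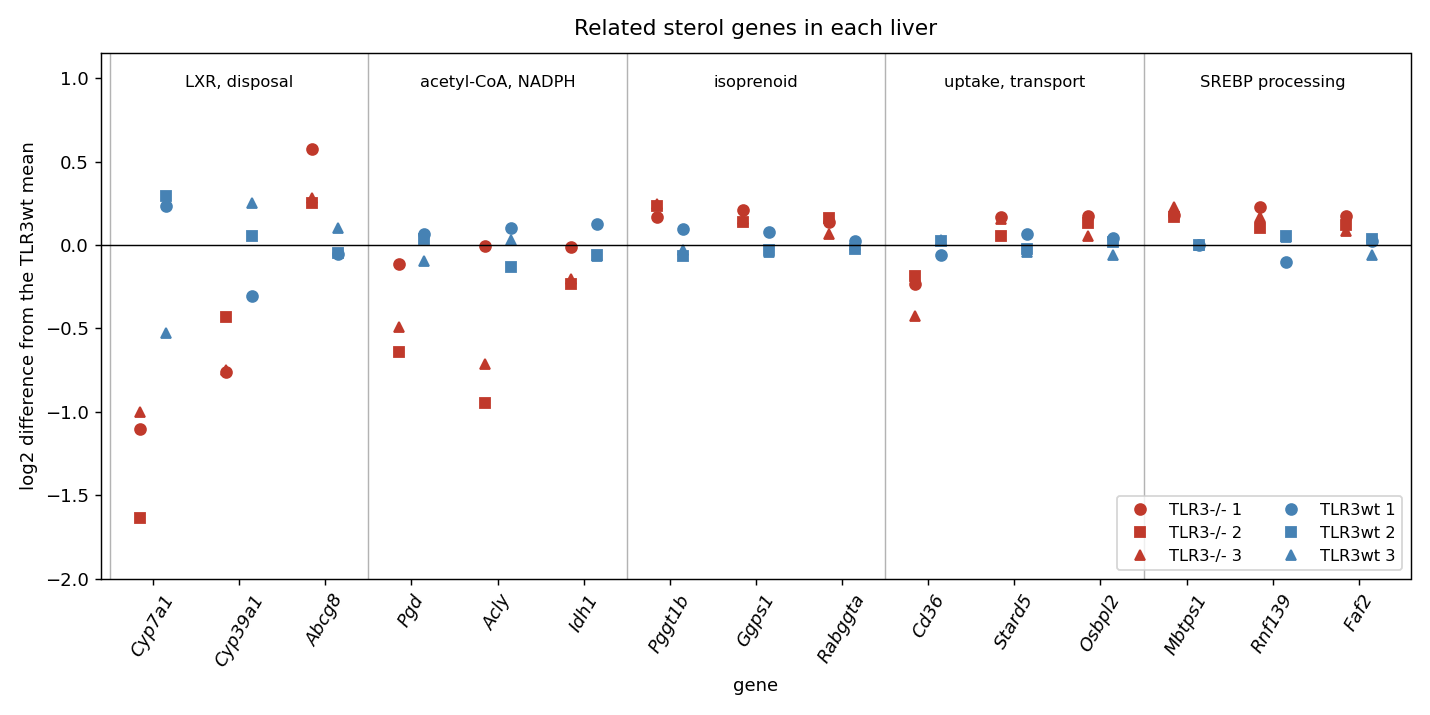
Points are log2 differences from the TLR3wt mean in each liver (TLR3-/- red, TLR3wt blue, shapes for replicate numbers) for the 3 genes with the smallest p in each related list. Cyp7a1, Cyp39a1, Pgd and Cd36 have all TLR3-/- livers below all TLR3wt livers, and Abcg8, Osbpl2 and the genes shown for isoprenoids and SREBP processing have them above.

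Over the whole array, 15081 to 15226 probe sets per liver stood above 5, and correlations between arrays over the tested probe sets were 0.980 to 0.991. In all, 31 of 16639 tested probe sets passed. The first principal component (39.5% of the variance) held the TLR3-/- livers at 11.1 to 16.5 and the TLR3wt livers at -20.2 to -5.12. On the second principal component (22.2%), TLR3wt replicate 3 (-17.6) stood apart from TLR3wt replicates 1 and 2 (14.5 and 11.1). The Tlr3 probe set was at 5 in all 6 livers, so the array gives no check of the genotype labels.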

How the data were processed

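Liver RNA of 6 mice (3 per genotype, groups from the sample titles) was measured on arrays. The deposited log2 values come from the authors' RMA run (Expression Console, Affymetrix), as the submitters' processing notes and the labels say. The table's lowest value is 5, which 57.2% to 57.6% of the values of an array hold. No source used here says what set it. A difference near it is understated.

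Symbols came from the array annotation, updated by gene identifier through RefSeq (GRCm38.p6), which held 99.6% of them. The test was limma's (version 3.58.1 under R 4.3.3) with lmFit and eBayes (group as the only term, two-sided, Benjamini-Hochberg over all tested probe sets). The 18918 probe sets at 5 on all arrays were left out and 16639 tested. The procedure was checked on simulated data.

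Members, roles, lists and tests were chosen with earlier results of these data known, so list counts and medians are descriptions. Values in every liver are given for Srebf2, Insig1 and the 3 genes of each role lowest in unadjusted p, and as many are named in each related list. Other genes with such values (Idi1, Rdh11, Abcg5, Cyp7b1, Pltp) were added after their values were seen. The separate count of synthesis enzymes without Rdh11 was also added then. The 6 arrays limit the precision. The replicate numbers did not pair the mice.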

Additional observations from a re-analysis of the deposited data

How the results depend on the processing

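Fits were repeated with other filters on probe sets, normalizations, variance models, array weights, 1 mouse left out in turn, other choices of the probe set that stands for a gene, and the replicate number as a block. The 33 genes the rule names kept the sign of their difference in each of these, and 0 passed in any. In 12 of them leaving out 1 mouse moved the difference by over 1.5 times, and those values stand with the genes. The count of called cholesterol genes was 0 throughout. The 17 synthesis enzymes all kept a lower mean in each setting except without TLR3-/- replicate 2 (16) or replicate 3 (14), and their median lay between -0.40 and -0.14 without 1 mouse and between -0.33 and -0.25 otherwise. The count of 31 called probe sets became 0 with all probe sets tested (2018 at an unadjusted p under 0.05), 18 with probe sets above 5 on all arrays, 9 after quantile normalization again, 14 with arrays centred on their median, 1 with 1-symbol probe sets only, 3 with identical probe sets entered once, and 0 to 13 without 1 mouse. The number of cholesterol genes lower at an unadjusted p under 0.05 was 2 with all probe sets tested and 1 to 11 without 1 mouse, and that of genes with all TLR3-/- livers below all TLR3wt livers was 6 to 13 without 1 mouse. The median of the uptake genes ran from -0.059 to 0.0596 without 1 mouse.

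Mice with the same replicate number did not deviate together (correlations 0.05, -0.01 and -0.06 over the tested probe sets). With the replicate block, 4 probe sets and 0 cholesterol genes were called, and the smallest limma adjusted p of a cholesterol gene was 0.256.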

Other observations

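Among the related genes outside the naming rule, the largest difference was that of Cyp7b1, an oxysterol hydroxylase of the alternative bile acid route. It was 10.68, 11.33 and 11.33 in TLR3-/- livers and 10.45, 10.14 and 8.11 in TLR3wt livers. The groups did not overlap, with TLR3wt replicate 3 far below all other livers, and the difference was 1.54 (limma adjusted p = 0.334). Pltp, the phospholipid transfer protein, was 9.04, 7.83 and 7.67 in TLR3-/- livers and 8.32, 8.56 and 8.50 in TLR3wt livers, so the TLR3-/- livers lay on both sides of the TLR3wt livers. Both genes were singled out after their values were seen.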
